A study of Homo sapiens with 4 samples.

Results

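The 35 genes described here belong to the unfolded protein response and the integrated stress response. They were taken by gene name from the table of 58735 genes, in which all 35 were listed. They comprise 5 sensors, 5 transcription factors, 5 feedback and effector targets, 9 genes of amino acid supply and 11 chaperones and folding factors of the endoplasmic reticulum (ER). Of these, 32 passed the filter on low levels and were tested, among 12033 genes tested in all.

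Messenger RNA was sequenced from Myla, a human cell line of mycosis fungoides, a T cell lymphoma of the skin. Cells labelled FOXM1 knockdown had received lentivirus with short hairpin RNA against FOXM1 (shFOXM1, 2 libraries). Cells labelled wild type had received lentivirus with a scrambled hairpin (shControl, 2 libraries), so both groups carried a vector. Each culture of 1 mL received 10 uL of virus medium, which was replaced after 24 h, and RNA was taken 72 h later. The sources used here do not say whether both shFOXM1 libraries carried the same hairpin, or whether cultures were transduced separately. Spread between libraries, and every p-value built on it, may therefore be technical. In shFOXM1 it may also hold a difference between 2 hairpins, which cannot be told apart here.

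In the integrated stress response, kinases such as PERK (EIF2AK3) and GCN2 (EIF2AK4) phosphorylate the initiation factor eIF2. General translation slows while the transcription factor ATF4 is made from its messenger RNA, and ATF4 then switches on genes for amino acid uptake and synthesis. In the unfolded protein response, PERK, IRE1 (ERN1) and ATF6 sense misfolded protein in the ER, and IRE1 splices XBP1 messenger RNA. ATF6 and spliced XBP1 then raise chaperones such as BiP (HSPA5). ATF4 and XBP1 are thus regulated largely after transcription, which gene-level values do not measure.

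Promoter motifs known from these pathways were searched by role. RefSeq windows of build GRCh38.p14, from 250 bases before to 50 bases after a start, were matched for 33 of the 35 genes, the others being PSPH and SHMT2. They were searched on both strands for the ER stress element (ERSE: CCAAT, then any 9 bases, then CCACG). Of the 27305 genes with a RefSeq window, 0.0916% held it. It was found for 5 of the 11 ER genes, for XBP1 and for 0 of the 7 amino acid genes searched. These stretches are shown because ATF6 is known to act through the ERSE. The motif is in capitals, on either strand, and each stretch reads along the gene's strand.
HSPA5 (chr9:125241376-125241424, minus strand): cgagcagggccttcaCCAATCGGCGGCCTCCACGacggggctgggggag
HSP90B1 (chr12:103930201-103930354, plus strand): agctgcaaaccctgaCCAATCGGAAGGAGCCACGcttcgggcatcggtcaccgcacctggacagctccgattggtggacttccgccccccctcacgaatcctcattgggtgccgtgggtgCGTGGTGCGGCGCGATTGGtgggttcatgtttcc
CALR (chr19:12938369-12938417, plus strand): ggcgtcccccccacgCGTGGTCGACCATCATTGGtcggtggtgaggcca
PDIA6 (chr2:10812838-10812886, minus strand): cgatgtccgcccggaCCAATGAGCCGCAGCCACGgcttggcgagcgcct
CRELD2 (chr22:49918539-49918587, plus strand): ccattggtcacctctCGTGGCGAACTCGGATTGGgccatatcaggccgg
XBP1 (chr22:28800588-28800636, minus strand): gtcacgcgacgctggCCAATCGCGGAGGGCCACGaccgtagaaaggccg

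A second form of the element, ERSE-II (ATTGG, any base, CCACG, held by 0.0696% of genes), was found in 2 more ER genes, HERPUD1 and SDF2L1. It is in capitals here.
HERPUD1 (chr16:56932010-56932050, plus strand): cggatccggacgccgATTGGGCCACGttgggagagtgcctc
SDF2L1 (chr22:21642099-21642139, plus strand): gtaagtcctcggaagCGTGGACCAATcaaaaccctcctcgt

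The ATF4 side is marked by the composite site of ATF4 and C/EBP proteins (CARE, searched as TGATGNAA). It is a shorter motif, held by 4.46% of genes, and was found for 3 of the 7 amino acid genes searched (ASNS, AARS and SLC3A2), for CHAC1, CEBPG and HERPUD1. In SLC3A2 it lay after the start and is not shown.
ASNS (chr7:97872454-97872491, minus strand): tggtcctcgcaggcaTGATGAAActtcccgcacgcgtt
AARS, listed by RefSeq as AARS1 (chr16:70289671-70289708, minus strand): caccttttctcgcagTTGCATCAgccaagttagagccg
CHAC1 (chr15:40953247-40953284, plus strand): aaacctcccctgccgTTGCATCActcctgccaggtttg
CEBPG (chr19:33374056-33374093, plus strand): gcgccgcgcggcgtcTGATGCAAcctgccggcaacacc
HERPUD1 (chr16:56931951-56931988, plus strand): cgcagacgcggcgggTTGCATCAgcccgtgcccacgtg

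Another ER motif, UPRE (TGACGTGG, held by 0.927% of genes), was found for 0 members. The cyclic AMP element CRE (TGACGTCA, held by 2.25% of genes and sharing its first bases with UPRE) was found for 1 member, PPP1R15A, and is shown because that gene had the highest fold change of the members.
PPP1R15A (chr19:48872348-48872385, plus strand): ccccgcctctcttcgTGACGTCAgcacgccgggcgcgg
A match is a description of letters and not a bound site. The windows of PSAT1, SLC7A5, DDIT4 and DNAJB9 held none of these letters.

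The libraries held between 14147084 and 15017728 recovered reads. FOXM1 was at 9.27 and 5.59 FPKM (fragments per kilobase of gene, scaled to library size) in shFOXM1 1 and 2, against 26.5 and 27.6 FPKM in shControl 1 and 2. On the log2(FPKM + 1) scale used for all fold changes here, FOXM1 differed by -1.77 (SE 0.23, adjusted p = 0.173 by limma, not called). FOXM1 was called by voom with library weights (-1.89, adjusted p = 0.0202). That fit weighted shFOXM1 1 and 2 at 0.381 and 0.380, and shControl 1 and 2 at 2.63 and 2.62, so it discounted the whole shFOXM1 group. The limma log2 fold change of FOXM1 was -2.09 without shFOXM1 1 and -1.45 without shFOXM1 2. Over the limma and voom alternatives that kept every library, its adjusted p ran from 0.0202 to 0.354. The shFOXM1 libraries lay further apart (SD over genes of the log2 difference 0.424) than the shControl libraries did (0.263). Of 9 T cell markers 7 passed the filter, among them CD3D, CD2 and IL2RA, while CD4 was listed at 0 and CD3E at 0.138 FPKM at most. The T cell markers summed to 678 and 472 FPKM in shFOXM1 1 and 2 and to 593 and 577 FPKM in shControl 1 and 2. Of 6 B and plasma cell markers 2 passed (MZB1, CD79A), summing to 44.1 and 49.1 FPKM in shFOXM1 1 and 2 and to 50.1 and 47.7 FPKM in shControl 1 and 2, with MS4A1 at 0. Of 5 myeloid markers 1 passed (CSF1R), with sums of 13.5 and 8.53 FPKM in shFOXM1 1 and 2 and 12.9 and 9.11 FPKM in shControl 1 and 2, and FCGR3A at 0. Of 6 stromal and epithelial markers 2 passed (COL1A1, COL3A1), with sums of 48.3 and 20.4 FPKM in shFOXM1 1 and 2 and 27.0 and 25.4 FPKM in shControl 1 and 2, and DCN, EPCAM and KRT14 at 0. In bulk RNA, fewer cells of a type and less RNA per cell cannot be told apart.

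Levels of the 35 genes ranged widely. ATF4 was the most abundant at 279 FPKM in shControl (mean, n = 2), above 99.2% of tested genes. CALR and HSPA5, chaperones of the ER lumen, followed at 187 and 150 FPKM. The sensors were among the lowest, with EIF2AK3 at 5.07 and ATF6 at 7.41 FPKM. The spliced-factor gene XBP1 (31.9 FPKM) and the kinase ERN1 (20.2 FPKM) were higher than these.

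VLDLR, ASNS and PHGDH did not pass the filter on low levels. PHGDH, which takes serine synthesis through its first step, had 0 reads in all 4 libraries, which allows at most 0.0229 FPKM in any of them. The next enzymes of the same pathway, PSAT1 and PSPH, were at 131 and 21.6 FPKM in shControl. VLDLR, a lipoprotein receptor that ATF4 induces, had 0 and 1 read in shFOXM1 1 and 2 and 1 and 2 reads in shControl 1 and 2. ASNS, the asparagine synthetase, was at 0.485 and 0.368 FPKM in shFOXM1 1 and 2 and 0.569 and 0.517 FPKM in shControl 1 and 2, from 25 to 36 reads. ASNS shares 44.6% of its exon bases with AC079781.5, a processed transcript on the same strand, so its reads are uncertain. ALDOA and PSMA6, a glycolytic enzyme and a proteasome subunit that cells generally use, were picked out after their values were seen. Both were listed at 2.93 FPKM or less and share exon bases with a gene of the same strand (42.3 and 14.1%). Whether such sharing lowered the listed values of these genes or of ASNS was not tested. PHGDH shares exon bases with no other gene.

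**Figure D1:**
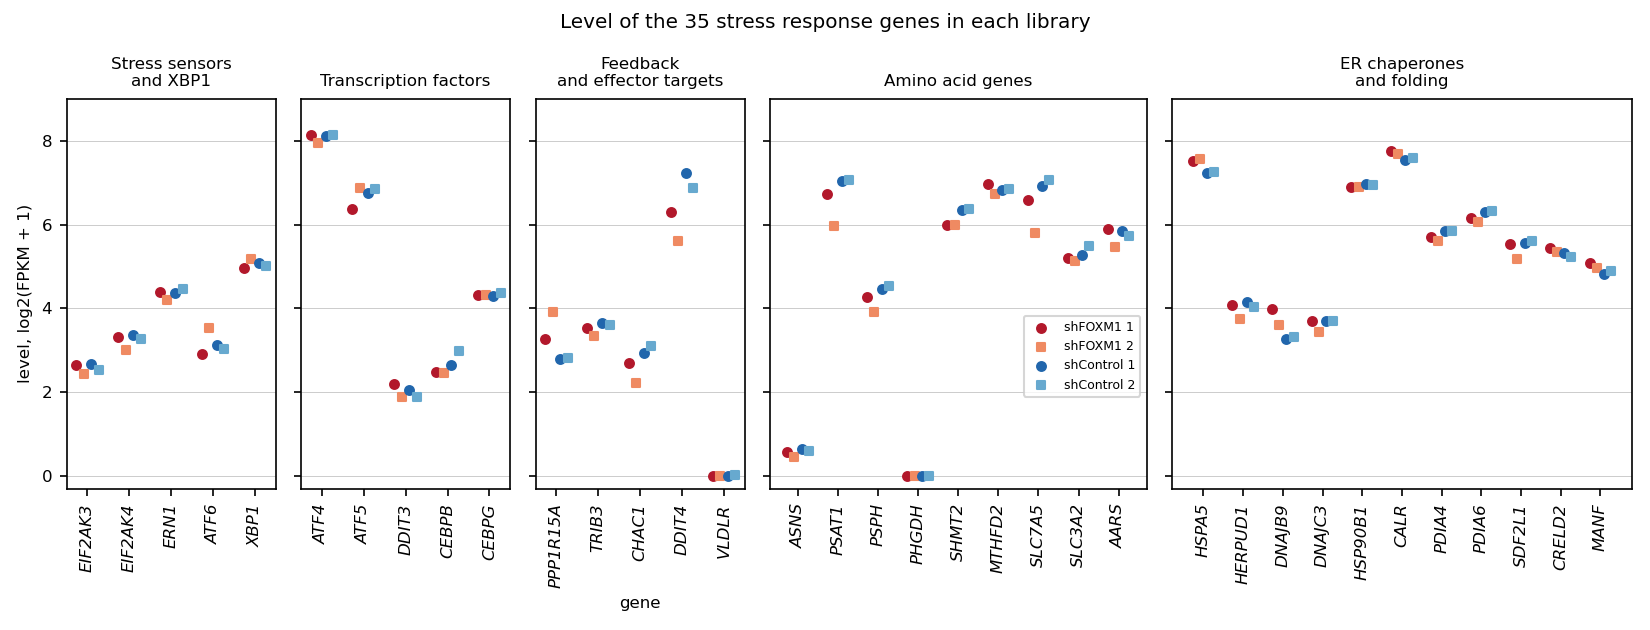
Level of each of the 35 genes as log2(FPKM + 1) on the vertical axis, by role, with 1 point per library (shFOXM1 red and orange, shControl dark and light blue). PHGDH and VLDLR lie at or near 0 and ASNS below 1, while ATF4 is the highest; DDIT4, PSAT1 and SLC7A5 have both shFOXM1 points below both shControl points, and PPP1R15A both above.

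No member passed the test over all genes. Limma called 0 of 32 members higher and 0 lower at an adjusted p under 0.05, and 0.0% of all 12033 genes in either direction. Without adjustment, 3 members had a limma p under 0.05 and a higher mean (HSPA5, DNAJB9 and PPP1R15A), beside 8.82% of all genes. Another 5 had such a p and a lower mean (DDIT4, SHMT2, SLC7A5, CHAC1 and PSAT1), beside 8.99% of all genes. Voom, a count-based weighting run on recovered reads, also called 0 members, and before adjustment 3 had a p under 0.05 and a higher mean and 6 a lower one, beside 9.37 and 9.32% of all genes. Voom with library weights called 0 members, beside 0.166% of all genes called higher and 0.0748% called lower. At an unadjusted p under 0.05 that fit gave 3 members higher and 5 lower, beside 9.22 and 7.92% of all genes. By the sign of the fold change alone, 10 members were higher and 22 lower, beside 49.9 and 50.1% of all genes. The median fold change of the members was -0.12, against -0.00075 over all genes tested.

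These counts hung on the shFOXM1 libraries. Without shFOXM1 1, limma called 3 of 32 members higher and 8 lower, beside 11.3 and 14.5% of all genes. Without shFOXM1 2 it called 1 higher and 0 lower, beside 2.34 and 2.95% of all genes. Group separation was counted as well. In 6 members both shFOXM1 libraries exceeded both controls, beside 27.3% of all genes, and in 13 both were below, beside 25.9%. With 2 libraries against 2, the smallest two-sided exact permutation p is 0.333, so single values carry no test of their own. In GENCODE release 29 (GRCh38), 6 of the 8 members with an unadjusted p under 0.05 are placed as follows. Lower in shFOXM1 were DDIT4 (ENSG00000168209) at chr10:72273920-72276036 on the plus strand, PSAT1 (ENSG00000135069) at chr9:78297143-78330093 on the plus strand, SLC7A5 (ENSG00000103257) at chr16:87830023-87869488 on the minus strand and SHMT2 (ENSG00000182199) at chr12:57229327-57234935 on the plus strand. Higher in shFOXM1 were PPP1R15A (ENSG00000087074) at chr19:48872392-48876057 on the plus strand and HSPA5 (ENSG00000044574) at chr9:125234853-125241330 on the minus strand.

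Among the sensors the groups overlapped in all 5 genes, beside 46.8% of all genes. EIF2AK3 (PERK) was at 5.28 and 4.44 FPKM in shFOXM1 1 and 2, against 5.33 and 4.8 FPKM in shControl 1 and 2. EIF2AK4, the GCN2 kinase that senses uncharged transfer RNA, averaged 7.98 ± 1.41 FPKM in shFOXM1 and 9 ± 0.447 FPKM in shControl (SD, n = 2 each). ERN1 averaged 18.8 ± 1.88 FPKM in shFOXM1 and 20.2 ± 0.934 FPKM in shControl. These 3 sensors had lower values in shFOXM1 2 than in shFOXM1 1.

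ATF6, the sensor that is cut to release a transcription factor, showed the reverse order. It was at 6.55 and 10.6 FPKM in shFOXM1 1 and 2, against 7.68 and 7.13 FPKM in shControl 1 and 2, so 1 shFOXM1 library lay below and the other above both controls. XBP1, at 30.1 and 35.1 FPKM in shFOXM1 1 and 2 and 32.7 and 31.2 FPKM in shControl 1 and 2, did the same within a narrower range. The fitted log2 fold change of XBP1 was 0.03, with a 95% interval of -0.29 to 0.35. Over the 5 genes the log2 fold changes ran from -0.16 to 0.16.

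ATF4 messenger RNA was near its control level in both shFOXM1 libraries. It was at 280 and 246 FPKM in shFOXM1 1 and 2, against 277 and 282 FPKM in shControl 1 and 2, on 9406 to 10458 reads a library. The log2 fold change was -0.09 with a 95% interval of -0.37 to 0.19 (limma, adjusted p = 0.69). ATF5, a relative of ATF4 that is also controlled at translation, was at 82.2 and 116 FPKM in shFOXM1 1 and 2, against 107 and 113 FPKM in shControl 1 and 2. Here shFOXM1 1 was the low library and the groups overlapped. ATF5 shares 21.2% of its exon bases with NUP62 on the opposite strand, and the strand setting of the counting is not given in the sources used here.

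DDIT3 (CHOP), the factor tied to cell death under ER stress, stayed low. It was at 3.62 and 2.71 FPKM in shFOXM1 1 and 2, against 3.18 and 2.7 FPKM in shControl 1 and 2, on 52 to 70 reads. MARS, the neighbour on the opposite strand, shares 27.2% of the exon bases of DDIT3 and was at 33.6 and 37.1 FPKM in shControl, so the reads of DDIT3 are uncertain. CEBPG, a dimer partner of ATF4, was at 19.1 FPKM in both shFOXM1 libraries and at 18.5 and 19.7 FPKM in shControl 1 and 2. CEBPB, a C/EBP factor of inflammation and stress, was the 1 of 5 factors without overlap, beside 27.3% of all genes above and 25.9% below. Its values were 4.63 and 4.5 FPKM in shFOXM1 1 and 2, against 5.26 and 6.9 FPKM in shControl 1 and 2 (limma, log2 fold change -0.34, SE 0.16, adjusted p = 0.342).

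The 4 tested feedback and effector targets had no overlap between groups, with 1 above the controls and 3 below, beside 27.3 and 25.9% of all genes. DDIT4 (REDD1), which restrains mTORC1 and answers to ATF4 as well as to hypoxia, was at 77.7 and 47.7 FPKM in shFOXM1 1 and 2, against 150 and 115 FPKM in shControl 1 and 2. Both shFOXM1 libraries were below both controls, with a log2 fold change of -1.10 (SE 0.27, limma adjusted p = 0.191). Its ratio of means was 0.474 in shFOXM1 to shControl. DDIT4-AS1, an antisense gene that shares 41.2% of its exon bases, was listed at 0. CHAC1, which degrades glutathione, was at 5.48 and 3.64 FPKM in shFOXM1 1 and 2, against 6.68 and 7.58 FPKM in shControl 1 and 2. Again shFOXM1 2 was the lowest library and the groups did not overlap (log2 fold change -0.57, SE 0.20, limma adjusted p = 0.254). TRIB3, a pseudokinase that dampens ATF4, averaged 9.83 ± 0.983 FPKM in shFOXM1 and 11.3 ± 0.353 FPKM in shControl (SD, n = 2 each).

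PPP1R15A (GADD34), the phosphatase subunit that reverses eIF2 phosphorylation, went the other way. Its level was 8.58 and 14.1 FPKM in shFOXM1 1 and 2, against 5.95 and 6.05 FPKM in shControl 1 and 2. Both shFOXM1 libraries lay above the controls and apart from each other, at 0.45 and 1.11 above the shControl mean on the log2(FPKM + 1) scale. The fitted log2 fold change was 0.78 (SE 0.24, 95% interval 0.17 to 1.40, limma adjusted p = 0.226). PPP1R15B, the constitutive counterpart of GADD34, was picked out after its values were seen and was also higher, at 46.3 and 41.2 FPKM in shFOXM1 1 and 2, against 33.4 and 29.6 FPKM in shControl 1 and 2.

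Genes of amino acid supply were mostly lower in shFOXM1 libraries. Of the 7 tested, 5 had both shFOXM1 libraries below both controls, 0 had both above, and 2 overlapped, beside 25.9% of all genes below. The median log2 fold change was -0.37, and -0.23 without shFOXM1 2. In all 7, shFOXM1 2 was lower than shFOXM1 1, as in 53.3% of all genes tested, though SHMT2 was nearly equal in both. The same order held in 9 of the 11 ER genes and in all 13 tested genes of a hypoxia list.

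SLC7A5 (LAT1), the transporter of large neutral amino acids, lay lowest against its controls. It was at 95.3 and 55.2 FPKM in shFOXM1 1 and 2, against 120 and 132 FPKM in shControl 1 and 2. The log2 fold change was -0.79 (SE 0.27, limma adjusted p = 0.249), made up of -0.40 in shFOXM1 1 and -1.18 in shFOXM1 2 against the shControl mean. SLC3A2 (4F2hc), the heavy chain that carries SLC7A5 to the membrane, was at 35.6 and 34.2 FPKM in shFOXM1 1 and 2, against 37.8 and 43.6 FPKM in shControl 1 and 2. Its groups did not overlap either, but its log2 fold change was only -0.21 (SE 0.12). The difference between these partners was not tested.

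The serine and one-carbon enzymes act in a chain, and differences between them were not tested. PSAT1, the aminotransferase of serine synthesis, was at 105 and 62 FPKM in shFOXM1 1 and 2, against 130 and 133 FPKM in shControl 1 and 2. Both shFOXM1 libraries were below the controls and the 2 controls nearly coincided (log2 fold change -0.70, SE 0.26, limma adjusted p = 0.265). PSPH, the phosphatase that completes serine, was at 18.3 and 14.1 FPKM in shFOXM1 1 and 2, against 21 and 22.2 FPKM in shControl 1 and 2. Its groups stood apart, but its pseudogene copy PSPHP1 was itself at 12.3 to 20.8 FPKM on 49 to 80 reads, so reads of PSPH are uncertain.

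SHMT2, which passes serine carbon to folate in mitochondria, had nearly equal values in both shFOXM1 libraries. It was at 62.5 and 62.4 FPKM in shFOXM1 1 and 2, against 80.4 and 81.2 FPKM in shControl 1 and 2. Both lay below the controls, with a ratio of 0.773 and a log2 fold change of -0.37 (SE 0.10, limma adjusted p = 0.196). MTHFD2, the next mitochondrial enzyme, overlapped between groups, at 125 and 105 FPKM in shFOXM1 1 and 2, against 112 and 115 FPKM in shControl 1 and 2. AARS, the alanyl-tRNA synthetase, also overlapped, at 58.6 and 43.2 FPKM in shFOXM1 1 and 2, against 56.9 and 51.7 FPKM in shControl 1 and 2.

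**Figure D2:**
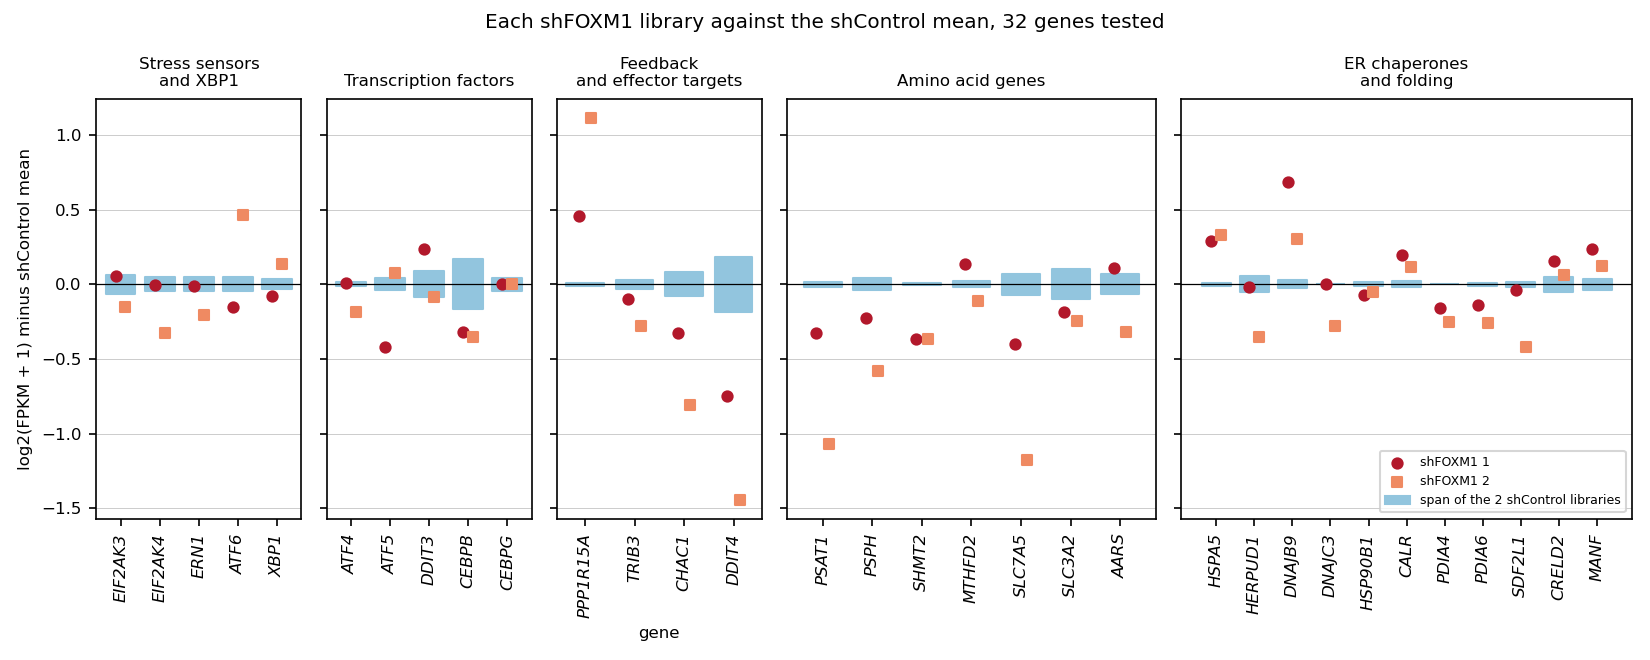
Difference of each shFOXM1 library from the shControl mean on the log2(FPKM + 1) scale (vertical axis) for the 32 genes tested, by role, with the span of the 2 shControl libraries as blue bars. All 7 amino acid genes and 9 of the 11 ER genes have shFOXM1 2 (orange squares) below shFOXM1 1 (red circles). PPP1R15A stands 1.11 above the shControl mean in shFOXM1 2, and the ER genes lie on both sides of 0.

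ER chaperones and folding factors lay on both sides of the controls. Of 11 tested, 5 had both shFOXM1 libraries above both controls, 4 had both below and 2 overlapped, beside 27.3 and 25.9% of all genes. Their median log2 fold change was -0.07, within a range of -0.23 to 0.49. HSPA5 (BiP), the chief chaperone of the ER, was at 183 and 188 FPKM in shFOXM1 1 and 2, against 149 and 151 FPKM in shControl 1 and 2. The libraries of each group lay close together and the groups stood apart, with a log2 fold change of 0.31 (SE 0.09, 95% interval 0.07 to 0.55, limma adjusted p = 0.225). Its ratio of means was 1.24.

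DNAJB9 (ERdj4), a co-chaperone of BiP, had the highest ratio among the ER genes, at 1.46. Its level was 14.8 and 11.1 FPKM in shFOXM1 1 and 2, against 8.64 and 9.03 FPKM in shControl 1 and 2. Here shFOXM1 1 was the higher library (log2 fold change 0.49, SE 0.16, limma adjusted p = 0.243). CALR, the calcium-binding lectin chaperone, was at 215 and 203 FPKM in shFOXM1 1 and 2, against 185 and 190 FPKM in shControl 1 and 2. MANF, a secreted ER stress factor, averaged 31.7 ± 1.82 FPKM in shFOXM1 and 27.9 ± 1.04 FPKM in shControl (SD, n = 2 each). CRELD2, another ER stress protein, averaged 41 ± 2 FPKM in shFOXM1 and 37.9 ± 1.96 FPKM in shControl. Its groups were separate by a narrow margin, with 39.5 FPKM in shFOXM1 2 and 39.3 FPKM in shControl 1.

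The 4 ER genes with both shFOXM1 libraries below both controls were the disulfide isomerases PDIA4 and PDIA6, SDF2L1 and the chaperone HSP90B1. PDIA4 was at 50.9 and 47.5 FPKM in shFOXM1 1 and 2 and at 56.9 FPKM in both shControl libraries. PDIA6 was at 70.9 and 65.3 FPKM in shFOXM1 1 and 2, against 77.7 and 78.9 FPKM in shControl 1 and 2. Their log2 fold changes were -0.21 and -0.20, and limma gave adjusted p values of 0.363 and 0.378. SDF2L1, which works with BiP co-chaperones, was at 45.7 and 34.9 FPKM in shFOXM1 1 and 2, against 46.5 and 47.6 FPKM in shControl 1 and 2, so nearly all of its difference lay in shFOXM1 2. HSP90B1 (GRP94), the HSP90 of the ER, averaged 118 ± 1.17 FPKM in shFOXM1 and 124 ± 1.8 FPKM in shControl. HERPUD1, which aids degradation of ER proteins, and DNAJC3, which inhibits PERK, overlapped between groups, with log2 fold changes of -0.19 and -0.14.

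The genes with an ERSE were on both sides of the controls. HSPA5, CALR and CRELD2 were higher in both shFOXM1 libraries, HSP90B1 and PDIA6 were lower in both, and XBP1 overlapped. Both genes with ERSE-II, HERPUD1 and SDF2L1, had negative log2 fold changes (-0.19 and -0.23). CHAC1, AARS, SLC3A2, HERPUD1 and CEBPG, which hold a CARE and were tested, had values of -0.57, -0.11, -0.21, -0.19 and -0.00088.

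**Figure D3:**
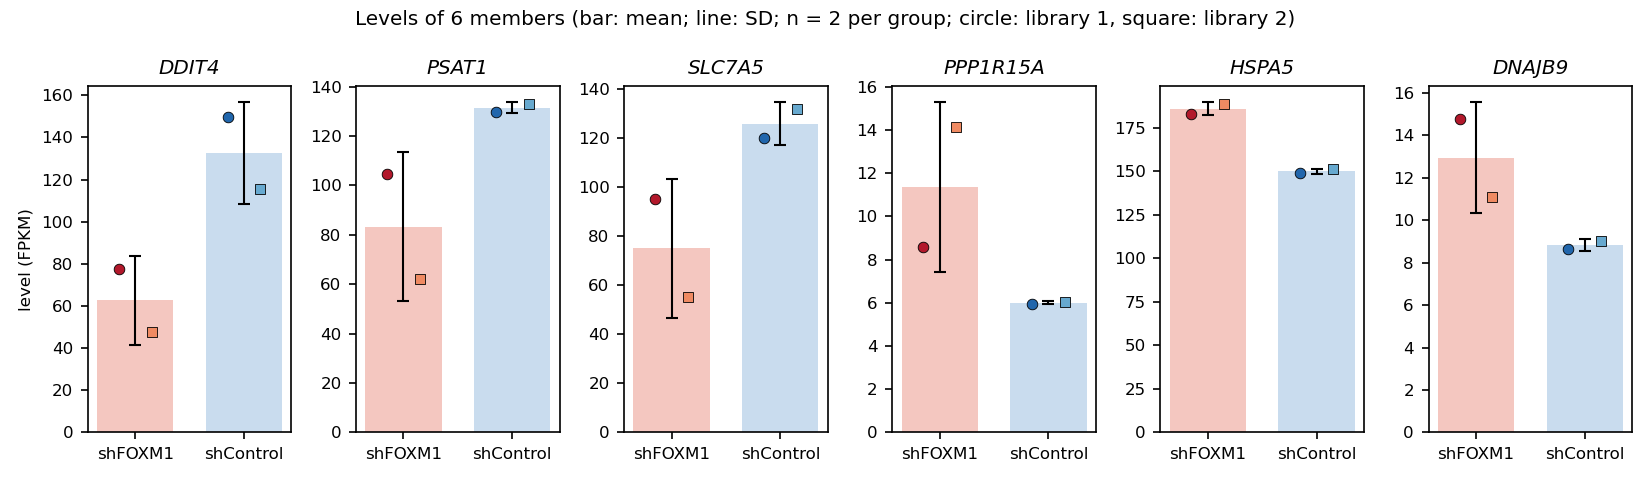
Level in FPKM (vertical axis from 0, scaled per gene) of DDIT4, PSAT1, SLC7A5, PPP1R15A, HSPA5 and DNAJB9 in shFOXM1 and shControl, with bars for the mean, lines for the SD (n = 2 each) and 1 point per library. DDIT4, PSAT1 and SLC7A5 are lower and PPP1R15A, HSPA5 and DNAJB9 higher in both shFOXM1 libraries, and the points of HSPA5 lie close together within each group.

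Set side by side, the summed levels of the amino acid genes and the ER genes differed in balance between groups. The 9 amino acid genes summed to 500.2 and 376 FPKM in shFOXM1 1 and 2, against 558 and 579 FPKM in shControl 1 and 2. The 11 ER genes summed to 801 and 762 FPKM in shFOXM1 1 and 2, against 744 and 749 FPKM in shControl 1 and 2. The ratio of the ER sum to the amino acid sum was 1.6 and 2.02 in shFOXM1 1 and 2, against 1.33 and 1.29 in shControl 1 and 2. Both shFOXM1 libraries thus had a higher ratio than both controls. These are sums over chosen genes, in which abundant genes weigh most, and they carry no test. By sign, 5 of the 11 ER genes were higher and 6 lower, with a median log2 fold change of -0.07. Of the 7 amino acid genes tested, 1 was higher and 6 were lower, with a median of -0.37.

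A wider list of amino acid and integrated stress response genes, outside the 35, was mostly lower by sign, with 20 lower and 6 higher. Of 26 tested members of 34, 14 had both shFOXM1 libraries below both controls and 1 had both above, beside 25.9 and 27.3% of all genes. The median log2 fold change was -0.26. Against the shControl mean, the median came to -0.04 in shFOXM1 1 and -0.43 in shFOXM1 2. In 25 of the 26, shFOXM1 2 was lower than shFOXM1 1, beside 53.3% of all genes tested. Limma called 0 of them after adjustment. Before adjustment, 4 had a p under 0.05 and a lower mean and 0 a higher mean, beside 8.99 and 8.82% of all genes. PYCR1, an enzyme of proline synthesis, was at 54 and 44.7 FPKM in shFOXM1 1 and 2, against 61.9 and 65.9 FPKM in shControl 1 and 2. SLC7A11, the cystine transporter, was at 2.55 and 3.16 FPKM in shFOXM1 1 and 2, against 3.91 and 3.44 FPKM in shControl 1 and 2. Both genes lay below the controls in each shFOXM1 library. The transfer RNA synthetases WARS (log2 fold change -0.23) and GARS (0.01), and the stress genes ATF3 (-0.16) and SESN2 (-0.01), did not pass the test, and of these 4 only the groups of WARS did not overlap.

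A wider list of ER genes had shares near those of all genes. Of 48 tested members of 51, 13 had both shFOXM1 libraries above both controls and 14 had both below, beside 27.3 and 25.9% of all genes. The median log2 fold change was 0.03. Limma called 0 after adjustment. Before it, 5 had a p under 0.05 and a higher mean and 6 a lower mean, beside 8.82 and 8.99% of all genes. HYOU1, an ER chaperone that exchanges nucleotide on BiP, was at 125 and 132 FPKM in shFOXM1 1 and 2, against 82.5 and 86.9 FPKM in shControl 1 and 2. Its log2 fold change of 0.60 (SE 0.10, limma adjusted p = 0.176) was the highest of this list. PDIA3, an isomerase of glycoproteins, averaged 59.9 ± 0.0304 FPKM in shFOXM1 and 65.4 ± 0.0509 FPKM in shControl. The log2 fold changes of P4HB, CANX, SEL1L and EDEM1 were -0.08, 0.07, 0.04 and -0.20. The kinases, subunits and phosphatase partner of eIF2 numbered 10 tested of 11, with 3 above and 1 below the controls in both shFOXM1 libraries, beside 27.3 and 25.9% of all genes. PKR (EIF2AK2) was listed at 0.0126 FPKM at most, and whether it shares exon bases with another gene was not examined.

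**Figure D4:**
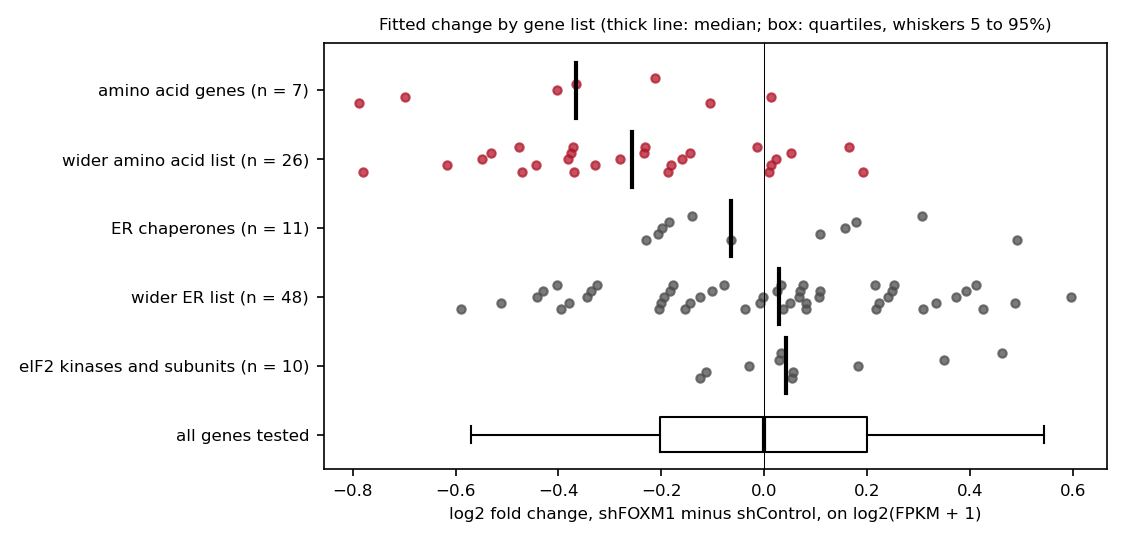
Fitted log2 fold change, shFOXM1 minus shControl, on the log2(FPKM + 1) scale (horizontal axis) for the tested genes of each list, 1 point per gene, with the median as a thick line and all 12033 genes as a box of quartiles with whiskers from 5 to 95%. The amino acid lists have medians of -0.37 and -0.26, and the ER lists medians of -0.07 and 0.03, close to the median of all genes.

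Hypoxia and glycolysis genes were also lower by median, and more so in shFOXM1 2. Of 16 listed, 13 were tested, and their median difference against shControl came to -0.28 in shFOXM1 1 and -0.88 in shFOXM1 2, while 8 of 13 had both shFOXM1 libraries below both controls, beside 25.9% of all genes. Over the 7 amino acid genes these medians were -0.23 and -0.37, and over the 11 ER genes -0.00019 and -0.06. DDIT4, a target of both pathways, had -0.75 and -1.44. The part of hypoxia genes, or of the difference between the shFOXM1 libraries, in the lower amino acid genes was not tested.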

How the data were processed

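The authors deposited FPKM values for 58735 genes in 4 libraries, with gene lengths. Aligner, counter and strandedness: not given in the sources used here. Mouse builds (GRCm38, mm10) stand in the submitters' processing notes, yet all 58735 gene coordinates equal human GENCODE release 29 (GRCh38). Columns Myla_sh0_1 and Myla_sh0_2 were read as shControl, and Myla_sh1 and Myla_sh2 as shFOXM1, with 0 columns of other samples. Whether the shFOXM1 names number libraries or hairpins is not given in the sources used here. FPKM multiplied by length returned whole reads, within 0.001 read, for 100% of values examined.

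The filter kept genes reaching 1 FPKM in 2 or more libraries. Limma 3.58.1 in R 4.3.3 was fitted to log2(FPKM + 1) with a mean-variance trend, and two-sided p-values were adjusted over all genes by Benjamini-Hochberg. This scale understates changes of low genes. The fit was tested on simulated data. All 35 members, 12 wider genes and FOXM1 were named by rule, and members and lists were chosen with earlier results of these data known. PPP1R15B, EIF2AK2, ALDOA and PSMA6 were chosen after their values were seen. Libraries of the same group were not duplicates, with a chi-square per degree of freedom of 36.5 for shFOXM1 and 3.93 for shControl.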

Additional observations from a re-analysis of the deposited data

How the results depend on the processing

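Under another pseudocount, no filter, quantile normalization, no trend, the replicate block and both voom fits, 0 members were called. Leaving out single libraries gave 0 to 3 members higher and 0 to 8 lower, 0 to 1360 genes higher and 0 to 1744 lower in all, and 16 to 21 members below all controls. The lone library of an arm is then assumed to vary like the other group. Calls made without a shFOXM1 library thus rest on the spread of the shControl libraries alone. A lone library also makes it easier for groups to separate in either direction. Members above all controls rose too, from 6 with all libraries to between 7 and 9. The matching share of all genes is not given for these settings, and 25.9% holds only for 2 libraries against 2. The 16 to 21 members below therefore cannot be read as a result about the members. Without shFOXM1 1, PPP1R15A, HSPA5 and ATF6 were called higher and DDIT4, SLC7A5, PSAT1, CHAC1, PSPH, SDF2L1, SHMT2 and PDIA6 lower. Without shFOXM1 2, DNAJB9 was called higher. Voom with library weights called 20 genes higher and 9 lower in all. Across single libraries left out, the amino acid median ran from -0.37 to -0.23 and the ER median from -0.080 to -0.00019.

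The direction turned for 9 members, whose log2 fold changes with all libraries lay between -0.17 and 0.16. Such a value can average unlike libraries. Against the shControl mean, shFOXM1 1 and 2 lay at -0.15 and 0.47 in ATF6, and at -0.42 and 0.075 in ATF5. Leaving out single libraries gave -0.15 to 0.052 for EIF2AK3, -0.15 to 0.47 for ATF6, -0.082 to 0.13 for XBP1, -0.19 to 0.0051 for ATF4, -0.42 to 0.075 for ATF5, -0.083 to 0.23 for DDIT3, -0.043 to 0.042 for CEBPG, -0.11 to 0.14 for MTHFD2 and -0.32 to 0.11 for AARS. CEBPG was also at 0.014 by voom and 0.0139 with library weights. The cause was not tested. With the replicate block, the medians were -0.37 and -0.07. Each group holds each replicate number, so this block could not change any fold change. Deviations of same-numbered libraries correlated at 0.0421 across genes, and the labels do not say that numbers pair cultures. Low depth limits DDIT3, ASNS, VLDLR and PHGDH.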
